A study of Mus musculus with 38 samples.

Results

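The 10 genes described here are markers of GABA neurons and of their interneuron classes: Gad1, Gad2, Slc32a1, Pvalb, Sst, Vip, Lamp5, Calb2, Cck, and Reln. They were taken by symbol from a count table of 54165 genes. RNA-seq libraries numbered 38, from 25 adult FVB/NJ mice of both sexes. Ube3a2X mice, which carry extra transgenic copies of Ube3a in homozygosity, were compared with wild-type (WT) controls. The prefrontal cortex (PFC) gave 20 libraries, 5 for each genotype in each sex. The hypothalamus (Hypo) gave 18, with 4 WT and 5 Ube3a2X libraries of each sex. In 13 mice both pieces of brain were taken, and no mouse gave more than 1 library of a tissue. The PFC was cut from coronal slices and the Hypo was lifted out with tweezers, so each library is a mixture of all cells of the piece. Fewer cells of a type and less RNA per cell cannot be told apart in such bulk libraries.

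GABA is the main fast inhibitory transmitter of the adult brain. It is made from glutamate by the enzymes that Gad1 and Gad2 encode (GAD67 and GAD65), and it is loaded into synaptic vesicles by the transporter of Slc32a1 (VGAT). In cortex, GABA neurons are mostly local interneurons, and their classes are told apart by calcium-binding proteins (parvalbumin from Pvalb, calretinin from Calb2), by neuropeptides (somatostatin from Sst, vasoactive intestinal peptide from Vip, cholecystokinin from Cck), and by Lamp5 and Reln. In the hypothalamus, GABA neurons are not confined to interneurons, and many of the same peptides act in projection and neuroendocrine cells. Cck and Calb2 are also made by excitatory neurons, the former widely in cortex.

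Sequence before the RefSeq start site of 4 members is shown because a cyclic AMP response element or its first 5 letters lies there, the element long known from the somatostatin gene. RefSeq promoters of GRCm38.p6, reaching from 250 bases before to 50 after a start site, were found for 9 of the 10 members (11 promoters). The runs below read 5′ to 3′ on the strand of the gene. They lie at chr16:23890874-23890903 (Sst, minus strand), chr10:5638968-5639217 (Vip, plus strand), chr9:121495695-121495944 (Cck, minus strand), and chr2:22622281-22622310 (Gad2, plus strand). The runs of Vip and Cck end at the start of the GENCODE gene. Those of Sst and Gad2 lie inside the span of the GENCODE gene (chr16:23889573-23890958 and chr2:22622205-22693874). Capitals mark TGACGTCA or TGACG on either strand.
Sst: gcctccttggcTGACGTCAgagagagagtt
Vip: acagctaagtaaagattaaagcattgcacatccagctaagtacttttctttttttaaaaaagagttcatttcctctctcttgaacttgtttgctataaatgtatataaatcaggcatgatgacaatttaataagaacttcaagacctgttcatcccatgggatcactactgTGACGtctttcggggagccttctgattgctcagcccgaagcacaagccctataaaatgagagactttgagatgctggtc
Cck: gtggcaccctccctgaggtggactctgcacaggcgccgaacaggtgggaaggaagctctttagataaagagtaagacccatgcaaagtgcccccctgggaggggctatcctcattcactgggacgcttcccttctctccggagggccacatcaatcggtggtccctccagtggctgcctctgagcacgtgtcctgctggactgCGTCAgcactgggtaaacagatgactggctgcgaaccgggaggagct
Gad2: tccatttcccttcCGTCActctctcatctc

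The full element TGACGTCA was present in 1.79% of the 32851 promoters of the table and, among the members, in Sst alone, 48 bases before the RefSeq start. The shorter TGACG, which the full element contains, occurred in 20.8% of all promoters and in those of 4 members: Sst, Vip (79 bases before the start), Cck (47 bases before, opposite strand), and Gad2 (33 bases before, opposite strand). TATAAA occurred in 13.6% of promoters and in those of Gad1 and Vip, with 1 of the 3 copies of Vip lying 30 bases before the start. TAATTA, the core letters of many homeodomain sites, occurred in 5.29% of promoters and in none of the 11. These are matches of letters on both strands and were not tied to any measured binding.

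The libraries held 36.89 to 69.1 M counted reads in the PFC (median 57.6) and 39.0 to 380.8 M in the Hypo (median 68.9). Ube3a matched the genotype labels in every library, with 186 to 268 counts per 1000000 counted reads (CPM) in WT PFC against 698 to 2269 in Ube3a2X PFC, and 105 to 349 in WT Hypo against 706 to 1666 in Ube3a2X Hypo. RNA integrity numbers (RIN) ranged from 6.7 to 8.9 in the PFC and from 6.8 to 9.3 in the Hypo. Input to the libraries was 500 ng of RNA for the PFC and 1000 ng for the Hypo, and tissue and input cannot be told apart. Summed over 10 markers of cortical excitatory neurons, the median was 7993 CPM in the PFC and 592 CPM in the Hypo. Of 14 hypothalamic genes, all had a median under 1 CPM in the PFC, where their sum had a median of 2.89 CPM against 899 CPM in the Hypo. In the Hypo, 1 library stood apart: WT female 471 held 4672 CPM of pituitary hormone genes, against 17.4 to 932 CPM in the other Hypo libraries, and had the lowest Ube3a. It was the highest Hypo library for 6 of the members (Slc32a1, Pvalb, Sst, Vip, Calb2, and Cck) and the lowest for Reln. In the PFC, Ube3a2X female 468 had the fewest reads (36.89 M), the highest Ube3a of all libraries (2269 CPM), and the lowest AT dropout (10.6 percent) and 5′ to 3′ bias (0.265) of that tissue. It was the highest PFC library for Gad2 and the lowest for Slc32a1. Values without each of these libraries are given beside some, not all, of the results in which it lay at an end of the range.

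The enzymes and the transporter that define a GABA neuron differed by at most 1.74-fold between the tissues. The class markers ranged from 1.54-fold (Sst) and 1.55-fold (Reln) to 33.2-fold (Cck). In edgeR's quasi-likelihood test over 22282 genes in all 38 libraries, 5 members were higher in the PFC (31.0% of all genes tested were), 3 were lower (32.4%), and 2 were not called. Called means an adjusted p (Benjamini and Hochberg) under 0.05 over all genes tested, and 63.4% of them were called in either direction. The median absolute log2 difference was 1.23 for the members and 0.53 for all genes tested. In 4 of the 10 members no PFC library overlapped any Hypo library, as in 20.4% of all genes. Levels below are CPM scaled by TMM (trimmed mean of M values) and differences are log2 PFC/Hypo from the fit, with the standard error (SE).

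**Figure D1:**
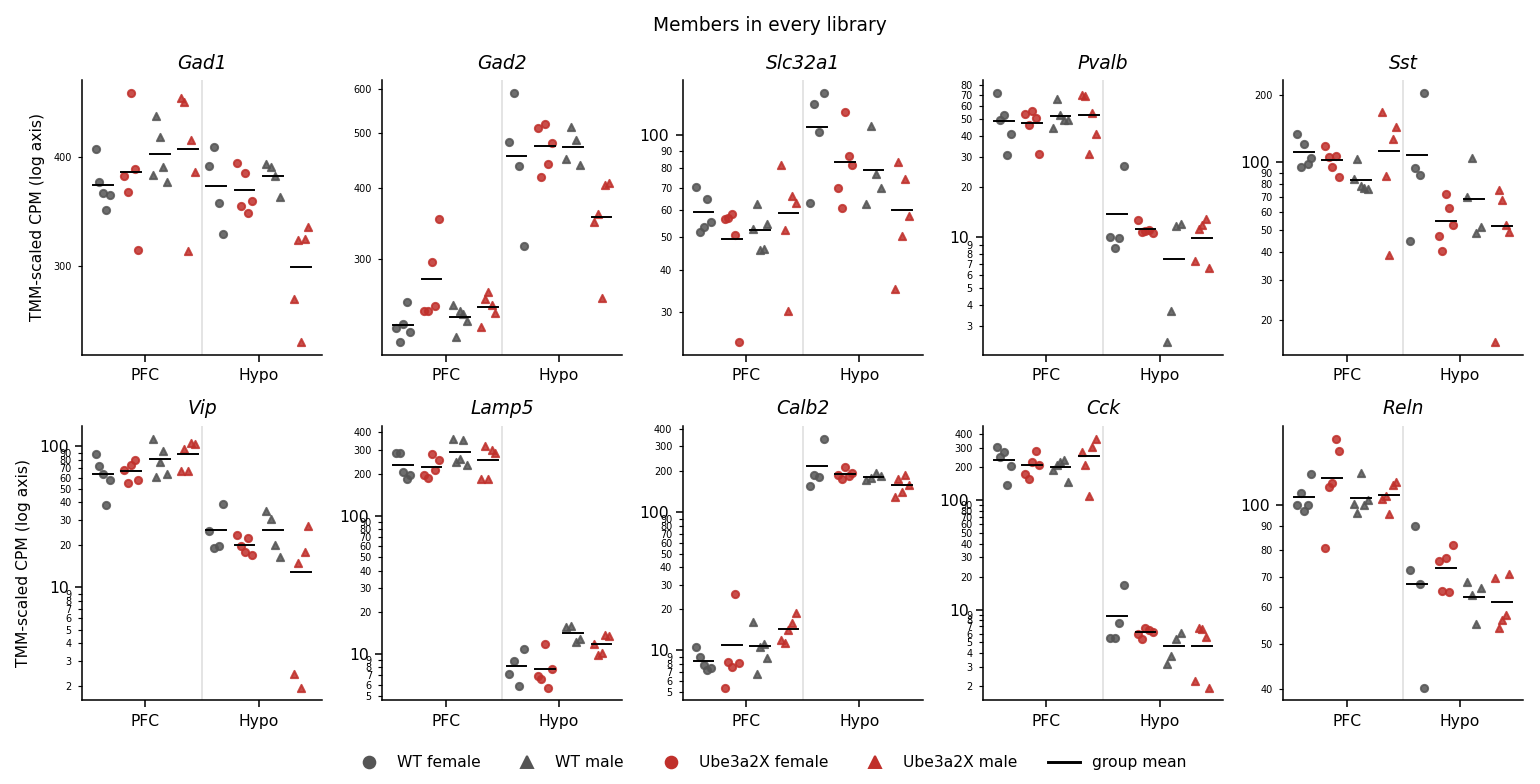
Level of each member in every library, in TMM-scaled CPM on a log axis, by tissue, genotype, and sex, 1 point per library and a bar at the group mean. Lamp5 (184 to 361 CPM in the PFC and 5.68 to 15.9 CPM in the Hypo), Cck, Calb2, and Pvalb separate the tissues, whereas the libraries of the other 6 members overlap.

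Gad1, the gene of the enzyme that makes most of the brain's GABA, measured 312 to 473 CPM in the PFC (median 382) and 245 to 411 CPM in the Hypo (median 355). The tissues overlapped over most of this range, and the difference of 0.10 (SE 0.08) was not called (adjusted p = 0.324, edgeR). It was above 0 in 8 of the 13 mice with both tissues. Scaling by library totals alone, which moved the median of all genes from −0.02 to −0.30, turned it to −0.18 with an adjusted p of 0.0467. Without RIN in the model it was called in the other direction (0.15, adjusted p = 0.00835, edgeR). Gad2, whose product sits mainly at nerve terminals, was lower in the PFC, at 214 to 354 CPM (median 243) against 256 to 590 CPM (median 441) in the Hypo. Its difference was −0.80 (SE 0.10, adjusted p = 6.51e-09, edgeR), a 1.74-fold lower level, and it was lower in the PFC in 12 of 13 mice. Slc32a1 measured 24.4 to 81.7 CPM in the PFC (median 54.9) and 35.1 to 134 CPM in the Hypo (median 75.5). It was lower by 1.62-fold in the PFC (−0.70, SE 0.20, adjusted p = 0.00288, edgeR), in 12 of 13 mice, with wide overlap. With the mouse as a fixed block in the 13 mice, the difference of Slc32a1 was −0.86 and was no longer called (adjusted p = 0.153, edgeR). Over all mice but without PFC Ube3a2X female 468, Slc32a1 differed by −0.57 (adjusted p = 0.00935, edgeR) and Gad2 by −0.88. AT dropout, the share of reads missing from AT-rich sequence, with which Slc32a1 rose in the PFC, was 10.6 to 22.1 percent in the PFC (median 18.2) and 18.3 to 24.1 percent in the Hypo (median 21.4), and its part in the difference was not tested.

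Lamp5, a membrane protein of neurogliaform and related cortical interneurons, was 22.7-fold higher in the PFC (4.51, SE 0.17, adjusted p = 4.48e-23, edgeR). Its lowest PFC library lay 11.5 times above its highest Hypo library. Per kilobase of exon, Lamp5 lay above Gad1 in each of the 20 PFC libraries, and which cells carried it was not tested. Cck measured 110 to 367 CPM in the PFC (median 216) and 1.92 to 16.7 CPM in the Hypo (median 5.76). This was the largest difference among the members, 33.2-fold (5.05, SE 0.26, adjusted p = 1.04e-18, edgeR), with the libraries 6.59-fold apart at their nearest. The highest Hypo library was WT female 471, with the next at 7.46 CPM (WT female 410). Without WT female 471 the difference was 5.06. Markers of cortical excitatory neurons, which also make Cck, were higher in the PFC too (10 of 10 called), and their part in the difference was not tested. The 5′ to 3′ bias, with which Cck fell in the PFC, was 0.265 to 0.749 in the PFC (median 0.442) and 0.489 to 0.943 in the Hypo (median 0.735), and its part was not tested either. Pvalb, the calcium buffer of fast-spiking basket and chandelier cells, measured 30.8 to 72.0 CPM in the PFC (median 50.4) and 2.40 to 26.3 CPM in the Hypo (median 10.8). It was 4.24-fold higher in the PFC (2.08, SE 0.25, adjusted p = 5.97e-09, edgeR). The highest Hypo library was WT female 471, and without it the difference was 2.11. Vip measured 38 to 113 CPM in the PFC (median 70.1) and 1.92 to 38.7 CPM in the Hypo (median 19.5), 3.17-fold higher in the PFC (1.66, SE 0.35, adjusted p = 8.64e-05, edgeR). Its ranges met only at their ends, where WT female 471 in the Hypo lay just above the lowest PFC library. Each of these 4 genes was higher in the PFC in 13 of 13 mice.

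Calb2 went the other way. The gene, a calcium buffer of bipolar interneurons and of many thalamic, hypothalamic, and midbrain neurons, measured 5.35 to 25.5 CPM in the PFC (median 9.81) and 129 to 342 CPM in the Hypo (median 181). It was 21.1-fold lower in the PFC (−4.40, SE 0.21, adjusted p = 1.14e-19, edgeR), in 13 of 13 mice, and the lowest Hypo library lay 5.07-fold above the highest PFC library. Slc17a6, the vesicular glutamate transporter of subcortical excitatory neurons, was also lower in the PFC, with a median of 10.6 CPM against 394 CPM. Reln, the secreted glycoprotein of layer 1 and of several interneuron classes, measured 80.7 to 139 CPM in the PFC (median 104) and 40.1 to 90.0 CPM in the Hypo (median 66.7). It was 1.55-fold higher in the PFC (0.63, SE 0.11, adjusted p = 6.94e-06, edgeR), in 13 of 13 mice, although the ranges overlapped. Sst, the peptide of Martinotti cells in cortex and of periventricular neurons that restrain growth hormone release, measured 38.7 to 168 CPM in the PFC (median 101) and 15.9 to 204 CPM in the Hypo (median 57.8). Its difference of 0.62 (SE 0.28) missed the threshold (adjusted p = 0.0553, edgeR), although it was above 0 in 11 of 13 mice. Without WT female 471, which set the top of the Hypo range, the same value of 0.62 was called (adjusted p = 0.0386, edgeR). DESeq2 called it too (0.62, adjusted p = 0.0288), as did edgeR without RIN (0.58, adjusted p = 0.00192), and so did 7 further fits that each left out 1 library (0.58 to 0.77): Hypo Ube3a2X female 420, Hypo Ube3a2X males 238 and 253, Hypo WT male 251, PFC Ube3a2X males 253 and 258, and PFC WT female 259.

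**Figure D2:**
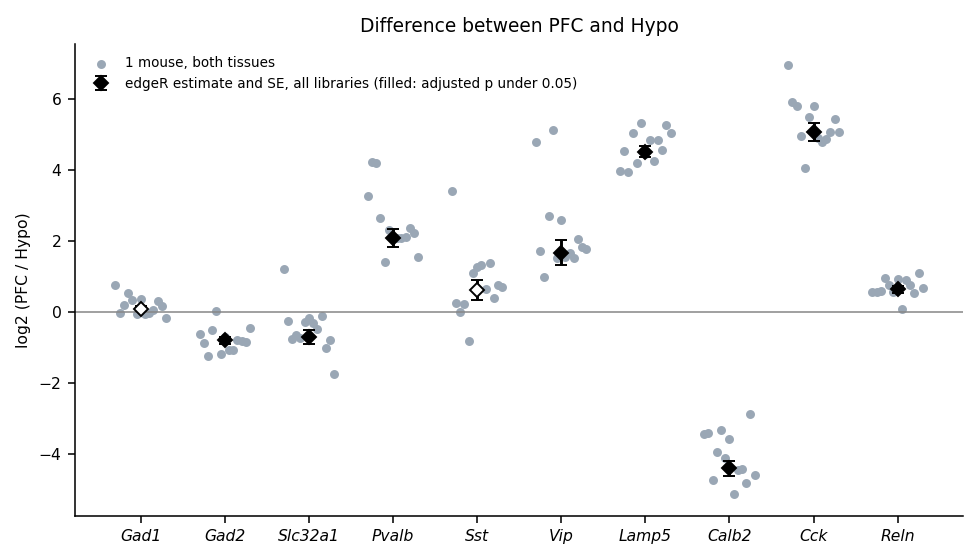
Difference between PFC and Hypo for each member, as log2 (PFC/Hypo). Points are the 13 mice with both tissues and the marks with bars are the edgeR estimates with their SE, from −4.40 for Calb2 to 5.05 for Cck; the estimate for Gad1 (0.10) was −0.18 with library totals alone.

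Levels per length of transcript put the genes on a common scale. As CPM per kilobase of exon (RPKM), the medians in the PFC ran from Cck (166) through Sst (140), Lamp5 (84.9), Gad1 (50.01), Pvalb (48.4), Gad2 (41.3), Vip (20.6), Slc32a1 (19.6), and Calb2 (5.63) to Reln (4.38). Neighbours in this order were not always separate: Gad1 lay above Pvalb in 14 of 20 PFC libraries and Vip above Slc32a1 in 12 of 20. Lamp5 lay above Gad1, Gad2 above Vip, and Slc32a1 above Calb2 in each of the 20. In the Hypo the order of RPKM was Calb2 (104), Sst (80.1), Gad2 (75.1), Gad1 (46.4), Slc32a1 (27.0), Pvalb (10.4), Vip (5.73), Cck (4.41), Lamp5 (3.56), and Reln (2.81). There Sst lay above Gad2 in 10 of 18 libraries and Lamp5 above Reln in 11 of 18, so these neighbours did not differ beyond their spread, whereas Gad2 lay above Gad1 and Slc32a1 above Pvalb in each of the 18. Exon length counted all exons of the gene, 721 bp for Sst and 23738 bp for Reln, and a level per kilobase falls where part of that length is seldom used.

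The balance of both GAD enzymes also differed between the tissues. The Gad1/Gad2 ratio, per kilobase of exon, was 0.681 to 1.58 in the PFC (median 1.23) and 0.535 to 0.793 in the Hypo (median 0.615). It was higher in the PFC in 13 of 13 mice, by 0.96 ± 0.34 on the log2 scale (SD, n = 13; two-sided exact paired permutation test, p = 0.000244, the smallest that 13 pairs allow; 0.000407 adjusted over 10 ratios). The only PFC library inside the Hypo range was Ube3a2X female 468. Slc32a1/Gad1 was lower in the PFC in 12 of 13 mice (mean log2 difference −0.65, SD 0.58, exact paired permutation p = 0.00269, adjusted 0.00336). Slc32a1/Gad2 did not pass the same test (0.31, SD 0.79, exact p = 0.189). The 10 ratios were added after the levels had been seen, and they use the same reads as the differences above.

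**Figure D3:**
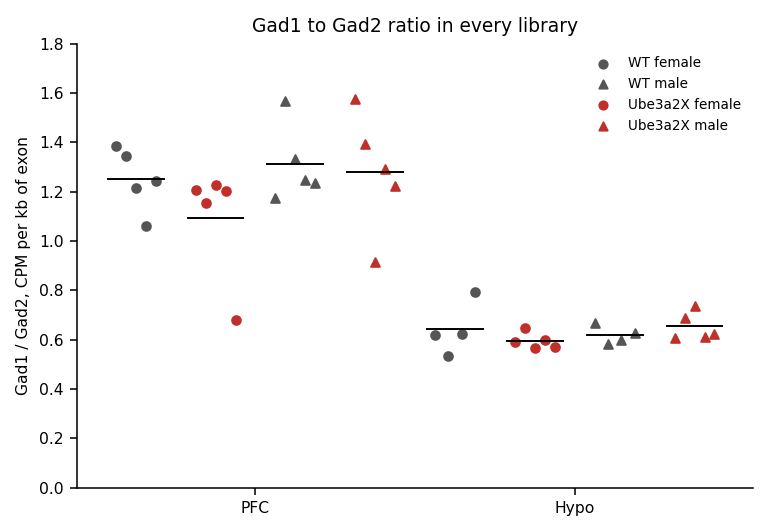
Gad1/Gad2 ratio in every library, in CPM per kilobase of exon, by tissue, genotype, and sex, and the group mean as a bar. The PFC libraries reach from 0.681 to 1.58 and the Hypo libraries from 0.535 to 0.793, and the ranges share 1 PFC library.

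The comparison of genotypes asks whether extra Ube3a changed these genes in each tissue. In the PFC, 0 of the 10 members were called for genotype averaged over the sexes (edgeR, 0.0183% of the 10900 genes tested), and 0 had an unadjusted p under 0.05 (7.9%). limma-voom and DESeq2 called 0 members as well, here and in each comparison by genotype below. Over all genes DESeq2 called 0.294% here, 2.25% in PFC males, 0.0826% in PFC females, 7.38% for the interaction in the PFC, 0.0421% in the Hypo, 0.143% in Hypo males, 0.0253% in Hypo females, and 0.153% for the effect between tissues, and limma-voom called at most 0.0183%. DESeq2 gave no adjusted p for Calb2 in the interaction in the PFC. The log2 differences Ube3a2X/WT ran from −0.17 for Lamp5 to 0.25 for Calb2, with SEs of 0.05 to 0.15. The synthesis genes differed by 0.02 (Gad1, SE 0.06) and 0.08 (Gad2, SE 0.05), and Slc32a1 by −0.12 (SE 0.09). Among the class markers between these ends, Sst differed by 0.15, Cck by 0.13, Pvalb by 0.05, Vip by 0.04, and Reln by 0.03. Within PFC males, 0 members were called (0.0275%) and 1 had an unadjusted p under 0.05 (18.3%): Lamp5, at 234 to 361 CPM in WT and 185 to 319 CPM in Ube3a2X males, with a difference of −0.33 (SE 0.14, adjusted p = 0.217, edgeR) and overlapping libraries. When quality components replaced the surrogate variables, this difference turned to 0.10. The other 9 ran from −0.07 (Vip) to 0.29 (Sst). Within PFC females, 0 were called (0.00917%) and 2 had an unadjusted p under 0.05 (14.6%), Gad2 at 0.16 (SE 0.07) and Slc32a1 at −0.32 (SE 0.13), while the other 8 ran from −0.01 (Lamp5) to 0.29 (Calb2). Calb2 in Ube3a2X females was 25.5 CPM in mouse 462, against 5.35 to 8.30 CPM in the others. That library also entered the average over the sexes. Gad2 measured 214 to 252 CPM in WT females and 243, 243, 296, 248, and 354 CPM in Ube3a2X females, the last in mouse 468. Without that library Gad2 fell among the genes of lowest variance and was not tested, and Slc32a1 differed by −0.22 with an unadjusted p of 0.129 (edgeR). Libraries of the genotypes overlapped for all 10 members in PFC males (2.94% of genes did not overlap) and in PFC females (2.61%).

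The interaction of sex and genotype in the PFC called 0 members (0.0%), with an unadjusted p under 0.05 for Slc32a1 alone (0.40, SE 0.18, adjusted p = 0.170, edgeR; 25.2% of genes). Slc32a1 measured 70.4, 51.8, 53.4, 64.8, and 55.3 CPM in WT females against 56.7, 56.8, 58.6, 50.7, and 24.4 CPM in Ube3a2X females. In males it measured 45.8 to 62.8 CPM in WT and 30.1 to 81.7 CPM in Ube3a2X. The lowest of all was Ube3a2X female 468, whose AT dropout was the lowest of the PFC libraries. Without WT female 93 the interaction of Slc32a1 was called (0.54, adjusted p = 0.0255, edgeR), and when quality components replaced the surrogate variables it was −0.15. Without Ube3a2X female 468 it was 0.31 (adjusted p = 0.331, edgeR).

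In the Hypo, 0 members were called for genotype averaged over the sexes (edgeR, 0.00843% of the 11869 genes tested), yet 3 of 10 had an unadjusted p under 0.05 (5.24%), each lower in Ube3a2X: Gad1 (−0.21, SE 0.06), Gad2 (−0.26, SE 0.10), and Sst (−0.41, SE 0.15). Their adjusted p-values were 0.886, 0.910, and 0.910. The other members ran from −0.52 (Vip, SE 0.44) to 0.60 (Pvalb, SE 0.28), with Slc32a1 at −0.26, Lamp5 at −0.09, Reln at −0.08, Calb2 at 0.03, and Cck at 0.10. These come from the fit with RIN and 2 surrogate variables, and the unadjusted means did not show the difference of Pvalb, at 10.6 CPM in both WT (SD 7.28, n = 8) and Ube3a2X (SD 2.08, n = 10). The means of Calb2 (199 and 174 CPM in WT and Ube3a2X), Cck (6.70 and 5.39 CPM), and Reln (65.3 and 67.3 CPM) differed in the opposite direction to the fit, all within 1 SD. The median absolute log2 difference was 0.23 over the members and 0.04 over all genes tested. Within groups, the SD of Vip, Sst, Pvalb, Cck, and Slc32a1 lay at percentiles 91.8 to 99.8 of the genes tested. Those of the other members lay from 4.51 (Gad1) to 78.1 (Lamp5). The part of this spread in the larger median was not tested. Without WT female 471 the differences of Gad1, Gad2, and Sst were −0.18, −0.22, and −0.37, none of them called. Those of Pvalb, Calb2, Cck, and Reln were 0.69, 0.04, 0.16, and −0.08, and those of Slc32a1 and Vip −0.19 and −0.46.

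Hypo males held the larger differences. There 0 members were called (0.0%), and 4 of 10 had an unadjusted p under 0.05 (9.2%). Gad1 measured 392, 389, 380, and 359 CPM in WT males and 275, 322, 245, 322, and 332 CPM in Ube3a2X males. Every Ube3a2X male lay below every WT male, with a difference of −0.32 (SE 0.08, adjusted p = 0.524, edgeR). Gad2 measured 451, 513, 487, and 440 CPM in WT males and 349, 360, 256, 406, and 409 CPM in Ube3a2X males, again without overlap (−0.43, SE 0.14, adjusted p = 0.524, edgeR). Gad1 and Gad2 were 2 of 10 members without overlap in Hypo males, where 1.39% of all genes had none. These fits share surrogate variables with the females, and without WT female 471 the male differences were −0.21 for Gad1 and −0.26 for Gad2, the latter at an unadjusted p above 0.05.

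Lists of other cells were read in the same libraries. Of 8 oligodendrocyte genes, 7 had an unadjusted p under 0.05 in Hypo males, as did 9.2% of all genes tested. Each of the 7 was higher in Ube3a2X, and 0 were called. The summed level of the 8 genes overlapped, at 3182 to 4331 CPM in WT and 3885 to 4574 CPM in Ube3a2X males. None of the 8 had a median under 1 CPM. Neither how far these genes move together nor their values without the WT female rich in pituitary transcripts is given here. The hypothalamic genes summed to 781 to 1073 CPM in WT and 600 to 880 CPM in Ube3a2X males, with a median log2 difference of −0.31 over 12 genes tested and Kiss1 under 1 CPM. Pan-neuronal genes summed to 2434 to 3017 CPM in WT and 2417 to 2868 CPM in Ube3a2X males. The part of these cells in the differences of Gad1 and Gad2 was not tested. Both members were lowest in Ube3a2X males 258 and 238, which also had the lowest hypothalamic sums. The share of intronic bases was 9.52% in male 238 and 7.32% in male 258, within 4.84 to 9.52% over Ube3a2X males and against 3.88 to 6.17% in WT males. AT dropout was 24.1 percent in male 258, the highest of all libraries, and 22.1 percent in male 238, against 21.3 to 23.2 percent in WT males. The part of these measures was not tested either.

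For Sst, Pvalb, and Vip, 1 or 2 libraries of Hypo males lay apart. Sst measured 70.0, 104, 48.5, and 51.4 CPM in WT and 15.9, 75.5, 68.2, 52.5, and 49.0 CPM in Ube3a2X males (−0.48, SE 0.21, adjusted p = 0.530, edgeR). Most libraries overlapped, and Ube3a2X male 238 lay far below the rest. Pvalb measured 2.40, 3.65, 11.7, and 12 CPM in WT and 7.29, 11.2, 11.9, 12.8, and 6.61 CPM in Ube3a2X males (0.98, SE 0.41, adjusted p = 0.524, edgeR), with the 2 lowest values both in WT. Without WT male 403, which was 1 of the 2 higher WT libraries, Pvalb was called in males (1.88, adjusted p = 0.0334) and averaged over the sexes (1.06, adjusted p = 0.0353, edgeR). Vip measured 34.5, 30.6, 19.9, and 16.4 CPM in WT and 2.43, 14.8, 1.92, 17.8, and 27.3 CPM in Ube3a2X males. Males 238 and 258 lay far below the other 7 male libraries, and the difference of −0.94 had an SE of 0.62. Without WT female 471 the male differences were −0.33 (Sst), 1.23 (Pvalb), and −0.50 (Vip), none of them called. Slc32a1 differed by −0.37 in males (SE 0.20), and by −0.15 without that library. The remaining 4 overlapped, Lamp5 at 12.3 to 15.9 CPM in WT and 9.78 to 13.7 CPM in Ube3a2X males (−0.22), Calb2 at 171 to 194 and 129 to 188 CPM (−0.05), Cck at 3.16 to 6.04 and 1.92 to 6.74 CPM (0.17), and Reln at 55.2 to 68.0 and 54.2 to 70.8 CPM (−0.06). Vip marks the retinorecipient core of the suprachiasmatic nucleus within the hypothalamus, a small region at its front edge.

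In Hypo females, 0 members were called for genotype (0.00843%) and 0 had an unadjusted p under 0.05 (2.93%), with differences of −0.34 (Sst, SE 0.20) to 0.22 (Pvalb, SE 0.36). Gad1 measured 326 to 411 CPM in WT and 345 to 394 CPM in Ube3a2X females (−0.09, SE 0.08), and Gad2 317 to 590 CPM and 418 to 520 CPM (−0.10, SE 0.13). The other 6 ran from −0.14 (Slc32a1) to 0.10 (Calb2). WT female 471 is 1 of the 4 WT libraries here. Without it the differences were −0.41 for Sst, 0.14 for Pvalb, −0.15 for Gad1, −0.17 for Gad2, −0.22 for Slc32a1, and −0.42 for Vip, which was −0.09 with it, and 0 members were called or had an unadjusted p under 0.05. All 10 members overlapped between genotypes (1.03% of genes did not). The interaction of sex and genotype in the Hypo called 0 members (0.0%), and 0 had an unadjusted p under 0.05 (6.9%), so the larger differences of males were not shown to differ from those of females (Gad1 −0.23, SE 0.11, and Gad2 −0.33, SE 0.19). These interactions were −0.06 and −0.08 without WT female 471.

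**Figure D4:**
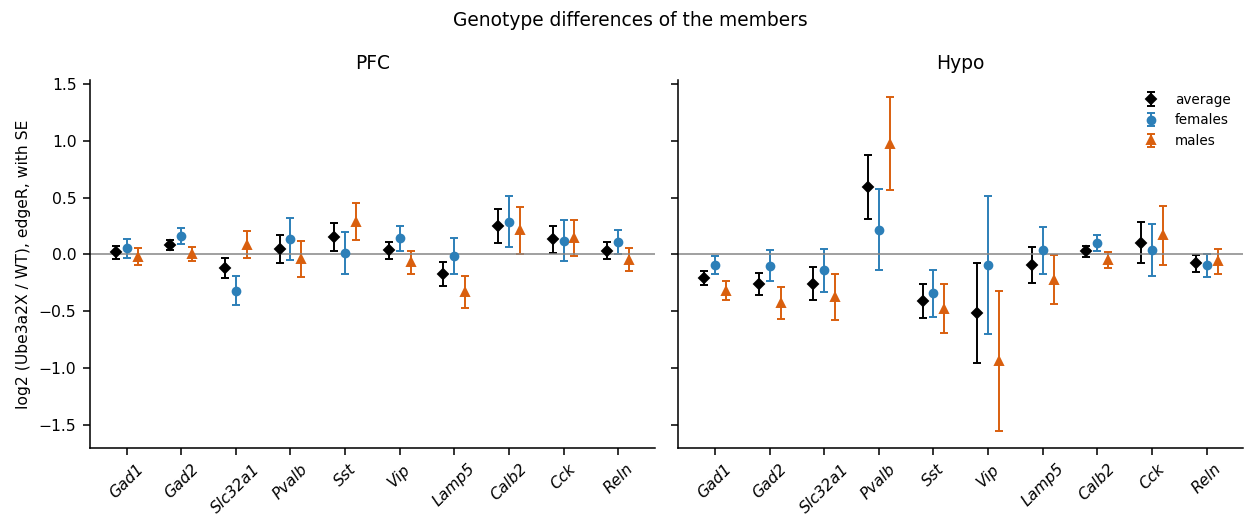
Genotype difference of each member as log2 (Ube3a2X/WT) from edgeR, with SE, averaged over sexes and within each sex, with 1 panel per tissue. The largest values are those of Pvalb (0.98) and Vip (−0.94) in Hypo males, with SEs of 0.41 and 0.62, and 0 of 10 members were called in either tissue.

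The genotype difference in the PFC minus that in the Hypo was tested in the model of all libraries. It called 0 members (0.0%), and 2 had an unadjusted p under 0.05 (11.1%): Gad2 (0.35, SE 0.13, adjusted p = 0.299, edgeR) and Sst (0.85, SE 0.35, adjusted p = 0.358, edgeR). These were 0.43 and 0.55 without WT female 471, and Gad2 was 0.28 without PFC Ube3a2X female 468. The Gad1/Gad2 ratio did not differ by genotype past the threshold in the PFC (log2 difference −0.13, exact permutation p = 0.281 over 63504 arrangements) or in the Hypo (−0.01, exact permutation p = 0.878 over 15876). It was −0.05 in the PFC without Ube3a2X female 468 and 0.04 in the Hypo without WT female 471. Of the 20 ratio tests by genotype, the smallest p was that of Reln/Gad1 in the Hypo (0.25, exact permutation p = 0.0347, adjusted 0.347), and without WT female 471, its lowest library, it was 0.16 (exact permutation p = 0.0923). In the same 17 libraries Calb2/Gad1 was 0.17 (exact permutation p = 0.0157, adjusted 0.157), against 0.02 with WT female 471, and Pvalb/Gad1 was 0.67 (exact permutation p = 0.0325, adjusted 0.162), against 0.46.

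By sex, 2 members were called in the Hypo, where 2.3% of all genes were (edgeR). DESeq2 (5.58% of genes) and limma-voom (2.31%) called the same 2. Of these calls, 1 was left under 5 processing alternatives and 0 under 2. With no surrogate variable, 7 genes in all were called against 273, and neither member was (Lamp5 0.73, adjusted p = 0.0663; Reln −0.19, adjusted p = 0.555, edgeR). Lamp5 measured 5.68 to 11.9 CPM in females (median 7.16) and 9.78 to 15.9 CPM in males (median 12.8). It was 1.74-fold higher in males (0.80, SE 0.16, adjusted p = 0.0170, edgeR), with the libraries overlapping between 9.78 and 11.9 CPM. Reln, at 40.1 to 90.0 CPM in females (median 72.3) and 54.2 to 70.8 CPM in males (median 63.7), was lower in males (−0.30, SE 0.07, adjusted p = 0.0423, edgeR). The call of Reln held in only 4 of 18 fits that each left out a single Hypo library (Ube3a2X male 404, WT female 410, and Ube3a2X females 417 and 462). Without WT female 471 its difference was −0.32 (adjusted p = 0.0616, edgeR). The call of Lamp5 was lost in 2 of the 18, those without WT male 251 (0.76) and without WT female 262 (0.78). Along with Gad1 (−0.16) and Gad2 (−0.27), 4 members had an unadjusted p under 0.05 (17.8%), and 0 of 10 separated the sexes without overlap (0.194%). Without WT male 403, Pvalb was called as lower in males (−0.76, adjusted p = 0.0146, edgeR). In the PFC, differences by sex ran from −0.23 (Sst, SE 0.13) to 0.09 (Pvalb, SE 0.12), 0 members were called (0.0917%), and 0 had an unadjusted p under 0.05 (8.83%), and limma-voom (0.0917%) and DESeq2 (0.358%) called 0 members there too.

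The members differed in how steady they were between mice. Within groups of the Hypo, the SD of log2-CPM was 0.12 for Gad1, at percentile 4.51 of the genes tested, and 0.99 for Vip, at percentile 99.8. Sst (0.69), Pvalb (0.68), and Cck (0.62) also varied more than the median gene (0.22). The SD without WT female 471 was 0.11 for Gad1, 1.01 for Vip, 0.62 for Sst, 0.62 for Pvalb, 0.54 for Cck, and 0.15 for the median gene. In the PFC, Gad2 (0.14), Gad1 (0.16), and Reln (0.17) were steadier than the median gene (0.21), and Calb2 (0.52), Cck (0.44), and Sst (0.44) were the most variable. Without Ube3a2X female 468 the SD of Gad2 was 0.10.

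RNA measures moved with some members in the PFC. Over 60 relations of the members with AT dropout, the 5′ to 3′ bias, and RIN (100000 permutations each, adjusted over the 60), 4 passed the threshold by r in the PFC and 0 in the Hypo. Slc32a1 rose with AT dropout over the 20 PFC libraries, with r = 0.89 (adjusted permutation p = 0.0006, from the smallest p that the permutations allow) and rho = 0.84 (adjusted permutation p = 0.0018), and r was 0.75 without the 2 libraries farthest from the median and 0.80 without Ube3a2X female 468 alone. Sst also went up with AT dropout by rank (rho = 0.69, adjusted permutation p = 0.0157), whereas its r of 0.64 missed the threshold (adjusted permutation p = 0.0541) and was 0.72 without the 2 farthest libraries and 0.76 without Ube3a2X female 468. Gad2 fell with it, with r = −0.69 (adjusted permutation p = 0.0418) and rho = −0.55 (0.127), and r was −0.35 without those libraries, so that the relation rests on them. Cck fell with the 5′ to 3′ bias (r = −0.65, adjusted permutation p = 0.0386; rho = −0.69, 0.0157; r = −0.54 without 2 libraries). Vip fell with RIN (r = −0.68, adjusted permutation p = 0.0303; rho = −0.76, 0.0045; r = −0.69 without 2 libraries). RIN was a covariate of the fits reported, and AT dropout entered only the quality components.

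**Figure D5:**
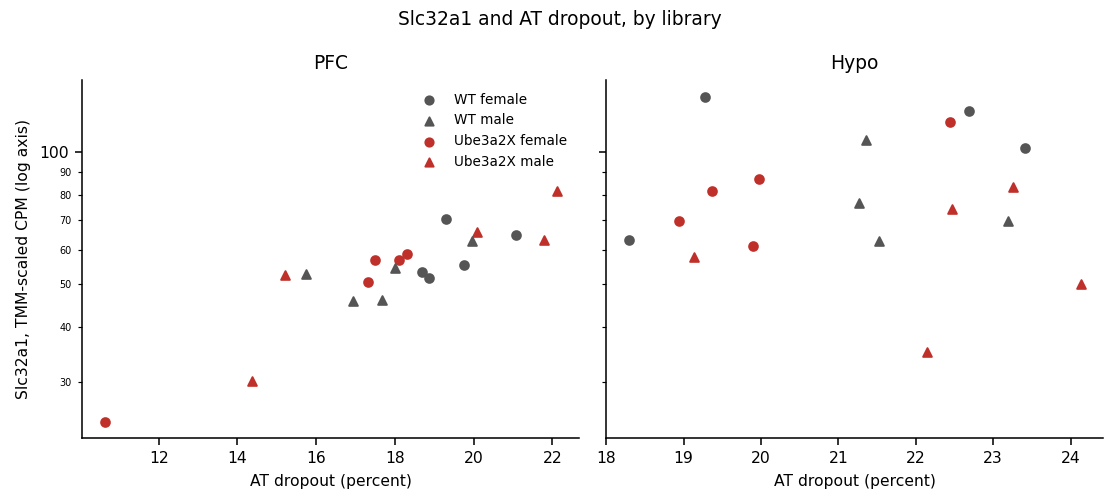
Slc32a1 in TMM-scaled CPM (log axis) against AT dropout in percent, 1 point per library, with the PFC and the Hypo in separate panels and points by genotype and sex. In the PFC r was 0.89 over 20 libraries, and the library at the lower left is Ube3a2X female 468 (24.4 CPM).

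Members were compared with each other on log2-CPM after removal of the group means, RIN, and 2 surrogate variables, which leaves values from the same libraries and the same scaling. Over 45 pairs, Pearson's r ranged from −0.73 to 0.91 in the Hypo (median 0.34, 16 pairs over 0.5) and from −0.58 to 0.75 in the PFC (median 0.10, 7 pairs over 0.5). In the Hypo the synthesis and packaging genes went together, Gad2 with Slc32a1 at r = 0.91 (rho 0.86) and Gad1 with Gad2 at r = 0.90 (rho 0.80), n = 18. With the group means removed alone, Gad1 with Gad2 was 0.88 and Gad2 with Slc32a1 was 0.12. Without WT female 471 these pairs were 0.89 and 0.89 in the full model, and 0.88 and 0.42 with the group means alone. Cck went with Pvalb in the Hypo (r = 0.81, rho 0.90; 0.77 with the group means alone) and against Reln (r = −0.73, rho −0.70; −0.78), and without WT female 471 these were 0.80 and −0.73. In the PFC the highest pairs were Gad1 with Pvalb (r = 0.75, rho 0.64; 0.87), Cck with Sst (0.69, 0.57; 0.71), and Lamp5 with Vip (0.68, 0.64; 0.82), n = 20. There Gad1 with Gad2 was 0.49 (rho 0.43) but −0.43 with the group means alone, and Gad2 with Slc32a1 was 0.11 (rho 0.25) but −0.69. Without Ube3a2X female 468, Cck with Sst was 0.05 (0.72 with the group means alone), whereas Gad1 with Pvalb was 0.75 and Lamp5 with Vip 0.66.

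On the same scale, the gene most like each member was sought among all genes tested in that tissue, with Pearson's r and Spearman's rho given in parentheses. Over the 20 PFC libraries these were Ctsb for Gad1 (0.92, 0.85), Sap130 for Gad2 (0.84, 0.69), Gata2 for Slc32a1 (0.91, 0.87), Map1lc3b for Pvalb (0.91, 0.84), Chchd10 for Sst (0.94, 0.92), Vdac3 for Vip (0.87, 0.86), Pdp1 for Lamp5 (0.92, 0.89), Cdhr1 for Calb2 (0.88, 0.85), Bex3 for Cck (0.96, 0.94), and Slc24a3 for Reln (0.87, 0.85). Over the 18 Hypo libraries, those given here for 9 members were Tmx4 for Gad1 (0.95, 0.93), Trhr for Gad2 (0.97, 0.97), Frmd5 for Pvalb (0.97, 0.93), Tmem158 for Sst (0.96, 0.91), Map9 for Vip (0.94, 0.83), Arsa for Lamp5 (0.81, 0.81), Alk for Calb2 (0.95, 0.95), Reps2 for Cck (0.95, 0.96), and A230077H06Rik for Reln (0.83, 0.81). Each partner was picked as the highest of 10900 genes in the PFC or 11869 in the Hypo, so its r carries no p.

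Other genes of GABA handling and of interneuron identity were called between the tissues in both directions, and their counts stand beside the 31.0% of all genes that were higher and the 32.4% that were lower in the PFC. Of 10 genes of GABA synthesis, packaging, and uptake, 3 were higher, 4 lower in the PFC, and 3 not called (edgeR), and their median log2 difference was −0.03. The astrocytic GABA transporter Slc6a11 had a median of 186 CPM in the PFC and 1024 CPM in the Hypo (−2.47), Abat, which degrades GABA, 340 CPM and 782 CPM (−1.17), and the glutamine transporter Slc38a1 241 CPM and 441 CPM (−0.82). Slc6a13 (0.82) and Got1 (0.28) were among those higher in the PFC, and each turned sign under 1 alternative. Of 19 identity genes of GABA neurons, mostly transcription factors, 9 were higher and 7 lower, and the median was 0.25. Satb1 (2.27) and the Dlx6 antisense RNA Dlx6os1 (1.75) were among those higher in the PFC. Nkx2-1, needed for hypothalamic and ventral forebrain development, lay at 0 to 0.18 CPM in the PFC and at 22 to 33.3 CPM in the Hypo, and Nr2f2 (−2.32) and Prox1 (−1.45) were also lower in the PFC.

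Of 28 other interneuron class genes, 16 were higher and 11 lower in the PFC. Kcnc2, a potassium channel of fast-spiking cells, differed by 1.38, Cplx1 by 2.13, and Id2 by 1.49. Sncg (−4.59), Chodl (−3.83), and Npy2r (−3.77) were lower in the PFC. The perineuronal net, the matrix around Pvalb cells in cortex, had 4 genes higher and 4 lower of 8: Hapln1 (2.68), Ncan (1.40), and Hapln4 (0.95) were higher, and Acan (−1.01), Bcan (−0.42), and Tnc (−0.43) lower. Of 14 genes of receptors for the members' products and of their partners, 8 were higher and 4 lower. The receptors of the VIP peptide split, with Vipr1 at a median of 38.1 CPM in the PFC and 0.713 CPM in the Hypo (5.61) and Vipr2 at 0.779 CPM and 6.82 CPM (−3.03). So did those of cholecystokinin, since Cckbr was at 65.6 CPM and 10.2 CPM (2.67) and Cckar at 0 to 0.0212 CPM in the PFC and 5.35 to 10.8 CPM in the Hypo. The somatostatin receptor Sstr3 was higher in the PFC (1.57), and Adcyap1r1 lower (−1.20). In the genotype comparisons of either tissue 0 genes of these 5 lists were called. By sex in the Hypo, Ndnf, a gene of layer 1 neurogliaform cells (−0.43, adjusted p = 0.0362, edgeR), and Acan (0.27, adjusted p = 0.0186, edgeR) were called, and neither was with no surrogate variable or with quality components.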

How the data were processed

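The authors deposited 1 table of read counts per gene, not normalized, made by aligning stranded paired-end mRNA reads with STAR to GRCm38 (mm10) and by counting with featureCounts. In the deposited quality table the authors give RIN and AT dropout as a score, shares of bases and of correctly stranded reads as a fraction, and the 5′ to 3′ bias as a ratio, from Picard. Exon length and coordinates came from GENCODE vM21, which held 53905 of the 54165 gene IDs, all 10 members among them. Each tissue was fitted alone in R 4.3.3 with edgeR 4.0.16 (TMM, glmQLFit with robust estimation, glmQLFTest). Genes with under 100 reads in 2 or more libraries and the 15% of lowest variance were dropped. The model held 4 groups, RIN, and 2 surrogate variables (sva 3.50.0). PFC versus Hypo and the genotype effect between tissues came from all 38 libraries, 8 groups and RIN, after filterByExpr. All 10 members passed both filters. p-values were adjusted by the Benjamini-Hochberg method over all genes tested. The script was tested on simulated counts. Alternatives used limma 3.58.1 (voom), DESeq2 1.42.0, other scalings, filters and surrogate variables, and fits without 1 library each. Python 3.11.15 and matplotlib 3.10.9 drew the figures.

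Members and gene lists were chosen with earlier results of these data known. The rule for named genes held all 10 members, whose values are given in full where called or below an unadjusted p of 0.05 and otherwise mostly as ranges, along with up to 3 called list genes per direction between tissues and each list gene called elsewhere. Mouse numbers pair both tissues of 13 animals, whose deviations from their group means correlated at −0.31 to 0.21 (median −0.01). Counts of libraries of a group differed by 12.3 to 569 times the sampling noise over 72 pairs. That spread holds mouse, dissection, and RNA quality, which cannot be told apart. The quality row of PFC WT male 266 carries the number 66 and was joined by sample name. Some genes that the naming rules reach are not reported here.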

Additional observations from a re-analysis of the deposited data

Results flagged for a closer look

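In 5 of 80 groups of a member, 1 library lay far from the others of its group by Dixon's test, and since such a test picks about 1 in 20 groups by chance, 4 would be usual. In PFC Ube3a2X females, Slc32a1 was 24.4 CPM in mouse 468 against 50.7 to 58.6 CPM in the others, and Calb2 was 25.5 CPM in mouse 462 against 5.35 to 8.30 CPM. Mouse 468 also had the lowest AT dropout of the PFC libraries (10.6 percent, median 18.2). In Hypo WT females, Pvalb was 26.3 CPM in mouse 471, the library rich in pituitary transcripts, against 8.69 to 10.1 CPM. In Hypo Ube3a2X females, Pvalb was 12.8 CPM in mouse 272 against 10.6 to 11 CPM. In Hypo Ube3a2X males, Sst was 15.9 CPM in mouse 238 against 49.0 to 75.5 CPM.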

How the results depend on the processing

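Of 3499 values recomputed under alternatives, 3327 kept their direction and their side of the threshold, or their count within 1.5 times. Members called by sex in the Hypo (2) fell to 1 with RLE factors, filterByExpr, no variance filter, 1 surrogate variable, or quality components, and to 0 with no filter on low counts or no surrogate variable. Leaving out 1 library gave 0 to 2 for that count, and 0 to 1 for the interaction in the PFC and for genotype in the Hypo and in Hypo males. Library totals alone turned Gad1 between tissues to −0.18 and Got1 to −0.0030. Quality components turned Lamp5 in PFC males to 0.10 and the Slc32a1 interaction in the PFC to −0.15. Except where a fit had fewer libraries or genes, the cause was not tested. With the mouse as a fixed block, 7 of 10 members were called between tissues (5 higher, 2 lower) and 6973 genes in all, against 14116 without it, and Slc6a13 turned to −0.25. Those fits used fewer libraries. With the mouse as a random block (limma-voom, correlation −0.087), 8 members and 14074 genes were called. For PFC minus Hypo, both blocks called 0 members. Between tissues 7 to 10 members were called over 9 alternatives, 10 without RIN, and 8 to 9 without 1 library. The study's filter over all libraries dropped Gad1. Without Hypo WT female 471, the genotype difference of Gad2 in Hypo males moved from −0.43 to −0.26. At 36.89 M reads or more per library, counting error was a small part of the spread between libraries.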
